A study of Mus musculus with 15 samples.

Results

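Macrophage lipid storage and cholesterol efflux were followed through 10 genes chosen by name: Fabp4, Fabp5, Plin2, Lpl, Pparg, Nr1h3, Abca1, Abcg1, Apoe and Mylip. They were chosen with earlier results of these data known, so their counts set beside the share over all genes are descriptions. All 10 were found among the 57186 genes of the count table, and all 10 were among the 19839 genes that had at least 10 counts summed over the libraries and were therefore tested. The cells were RAW 264.7, an established mouse macrophage line, kept in RPMI medium with serum and studied at 6 h. The 5 groups were nontreated controls (Control), cells given nonporous silica nanoparticles of nominally 100 nm at 50 µg/mL (SNP100) or of 50 nm at 25 µg/mL (SNP50), cells given mesoporous 100 nm particles at 200 µg/mL (MSNP), and cells given hollow mesoporous 100 nm particles at 200 µg/mL (HMSNP). Each group had 3 poly(A) RNA libraries. Only MSNP and HMSNP were matched in dose, and since each group carries its own prefix in the library names, that prefix and the treatment cannot be told apart. Nothing in the labels says that the 3 libraries of a group came from separate cultures, so the p-values measure the spread between these libraries, which may be technical.

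Macrophages take up lipoproteins and fatty acids, store the surplus as triglyceride and cholesteryl ester in lipid droplets, and hand cholesterol back to apolipoproteins through transporters in the plasma membrane. Fatty acids bound by small cytosolic proteins activate the nuclear receptor PPARγ, which drives storage genes, while oxidized sterols activate the liver X receptors (LXR), which drive the efflux transporters and the ubiquitin ligase gene Mylip. Cells overloaded with lipid by this route are the foam cells of the atherosclerotic plaque.

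Library totals lay between 29369934 and 42617812 counts. Levels are given as CPM, the counts of a library scaled to its size, after TMM normalization in edgeR, and levels of different genes are compared only after division by transcript length in kilobases. Control replicate 3 stood apart from the other controls. Relative to them its log2 CPM had a median difference of 0.70 in the tenth of genes with the shortest transcripts (median 878 bases) and of -0.86 in the tenth with the longest (median 8443 bases), over 10652 genes. Of the 10 lipid genes Fabp5, with the shortest transcript (993 bases), stood 0.64 higher on the log2 scale in that library, and Abca1, with the longest (10267 bases), had a difference of -1.21. The counts of genes that passed the test against the controls are therefore given with and without this library, as are the values of the 10 genes that it moved across the threshold. All 11 macrophage markers, among them Lyz2, Csf1r and Cd68, were counted in every library, and their summed level was 16188 to 20484 CPM in the controls, 16348 to 17163 CPM in SNP100, 16408 to 17029 CPM in SNP50, 13490 to 14451 CPM in MSNP and 15867 to 17054 CPM in HMSNP. Most of that sum was Lyz2, and single markers moved both ways in MSNP. Cd68 (log2 fold change 0.68, adjusted p = 1.01e-06) and Mrc1 (1.96, adjusted p = 0.000116) rose, Lyz2 (-0.39, adjusted p = 0.0134), Csf1r (-0.65, adjusted p = 3.12e-05), Itgam, Cd14, Fcgr1 and Mertk fell, and Adgre1, Ptprc and Spi1 did not pass the test. The part of these differences in the lipid gene values was not tested. Of 6 adipocyte markers, which matter here because adipocytes also express Fabp4, Plin2, Lpl and Pparg, Lep, Cfd and Cidec had 0 counts in all 15 libraries, and the summed level of all 6 reached at most 0.0810 CPM in any library. The summed levels of 4 fibroblast, 3 T cell, 3 B cell and 3 epithelial markers stayed at or under 0.397 CPM. That highest value belonged to the T cell list, which summed to 0.297 to 0.397 CPM in MSNP and to at most 0.0917 CPM elsewhere, nearly all of it from Cd4. Of 6 osteoclast markers, Calcr had 0 counts in all libraries, and the list summed to 42.5 to 62.4 CPM. Single markers moved both ways here too. In MSNP Ctsk rose (0.84, adjusted p = 2.01e-05) and Acp5 fell (-0.31, adjusted p = 0.0386). In HMSNP Dcstamp rose (0.90, adjusted p = 0.00297) and Acp5 fell (-0.44, adjusted p = 0.0216). No other change in this list passed the test.

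**Figure D1:**
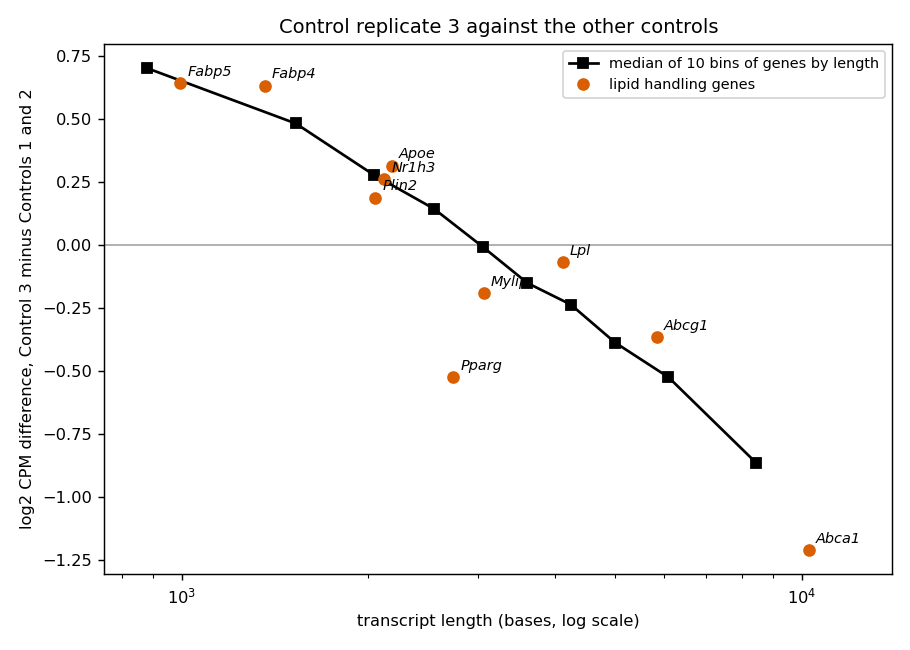
The log2 CPM of Control replicate 3 minus the mean of Controls 1 and 2 (vertical axis) against transcript length in bases (horizontal axis, log scale), with black squares for the medians of 10 bins of genes and orange points for the 10 lipid genes. The squares run from 0.70 for the shortest transcripts to -0.86 for the longest, and Fabp5 and Abca1 lie near its ends.

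In the MSNP-treated group 6 of the 10 genes changed relative to the controls in edgeR's quasi-likelihood test at an adjusted p under 0.05, where 22.8% of all tested genes did. Fabp4, Fabp5, Plin2 and Pparg rose, and Lpl and Mylip fell. In the HMSNP-treated group 1 of the 10 changed, Lpl, against a background of 5.16%, and it rose. In SNP100, Fabp4 and Abcg1 rose and Mylip fell, which makes 3 of 10 against a background of 0.912%. In SNP50, Fabp4 and Abcg1 rose, which makes 2 of 10 against 1.41%. Without Control replicate 3 the counts were 9 of 10 in MSNP (background 29.5%), 3 in HMSNP (8.66%), 6 in SNP100 (5.16%) and 7 in SNP50 (18.9%). The median log2 fold change of the 10 genes was -0.03 in MSNP, 0.16 in HMSNP, 0.16 in SNP100 and 0.20 in SNP50, beside -0.05, -0.04, -0.02 and -0.0017 over all tested genes. The medians of the 10 genes without Control replicate 3 were -0.02, 0.17, 0.06 and 0.20 in the same order. When edgeR was fitted to only the libraries of each comparison, 0 of the 10 genes passed in SNP100 and in SNP50. Fabp4 had an adjusted p of 0.492 and 0.434 there, at log2 fold changes of 1.51 and 1.62. The share of all tested genes that passed in these fits is not given here, so the 0 is not a result about the 10 genes. These 4 comparisons share their control libraries.

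**Figure D2:**
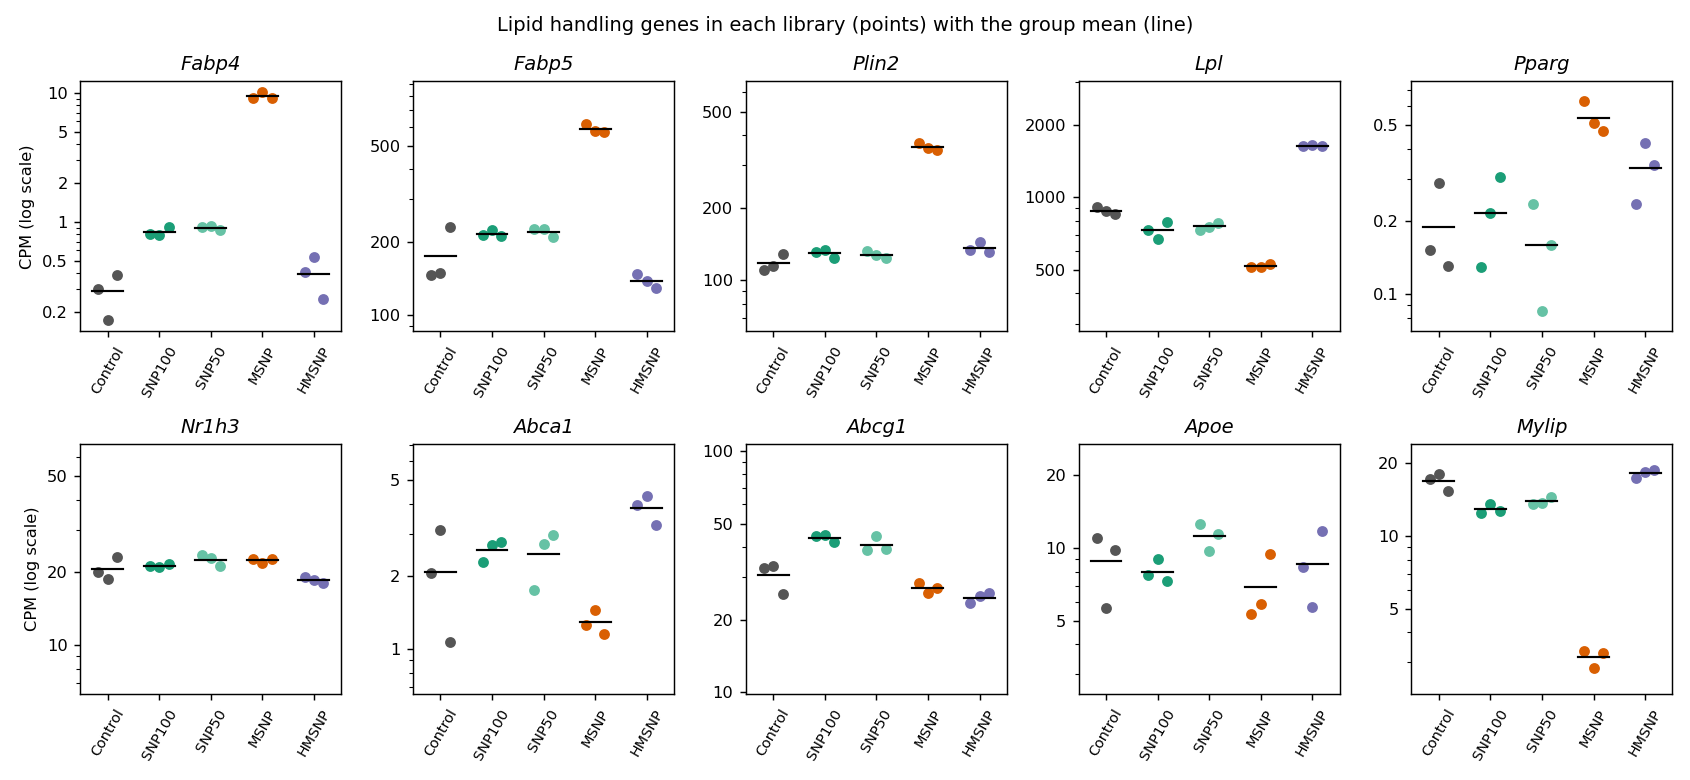
CPM (vertical axes, log scale, each panel with its own range) of the 10 lipid genes in the 15 libraries, with points for the 3 libraries of each group and lines for group means. Fabp4, Fabp5 and Plin2 are highest and Mylip and Lpl lowest in the 3 MSNP libraries, whereas Lpl and Abca1 are highest in the 3 HMSNP libraries.

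**Figure D3:**
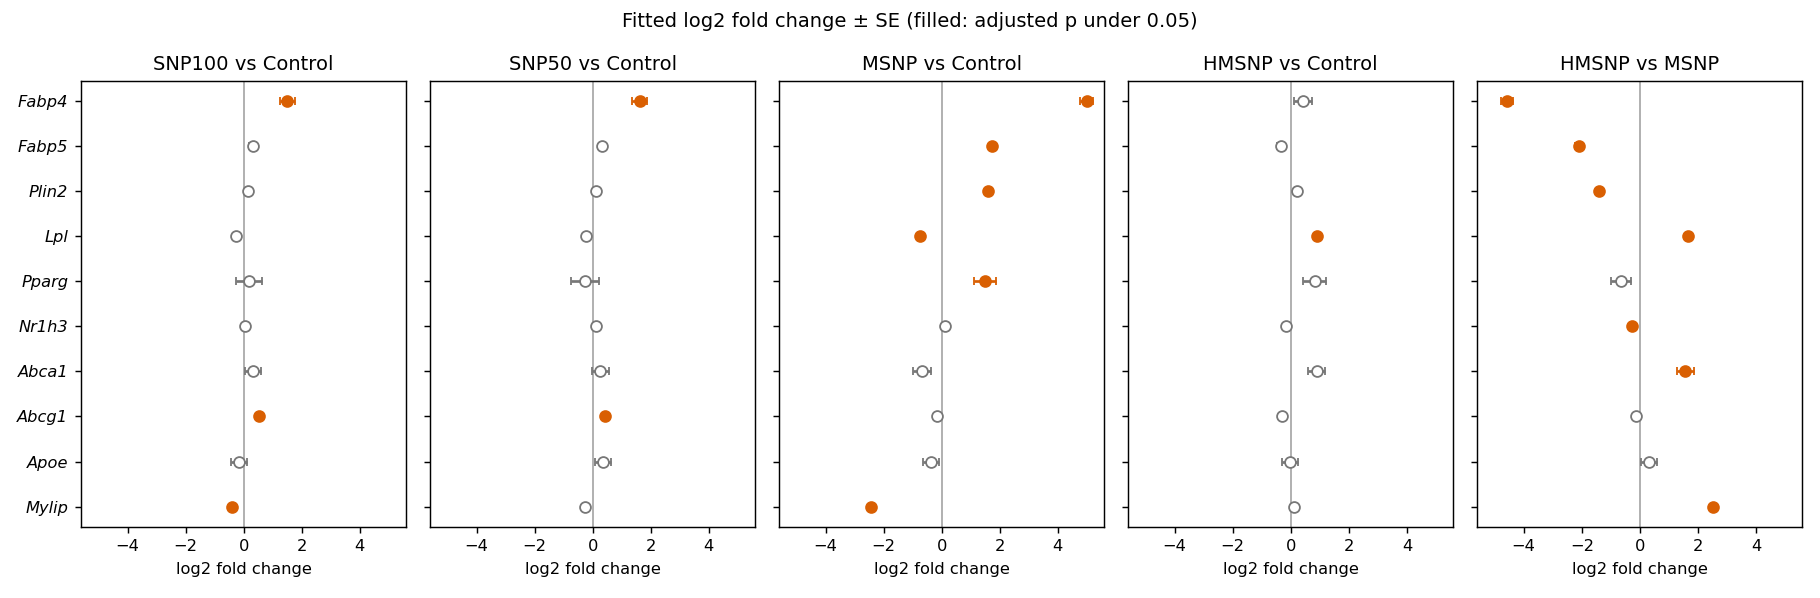
Fitted log2 fold changes (horizontal axes) with their standard errors for the 10 lipid genes in 4 comparisons with the controls and in HMSNP against MSNP, with filled orange points for an adjusted p under 0.05 and open grey points otherwise. Fabp4 reaches 4.99 in MSNP and Lpl 0.90 in HMSNP, and 7 of the 10 points are filled in HMSNP against MSNP.

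Fabp4, the fatty acid binding protein of adipocytes and lipid-laden macrophages (chr3:10268785-10273737, minus strand, GRCm39), showed the widest range of the 10 genes. It stood at 0.304, 0.173 and 0.390 CPM in the controls, which were 10, 6 and 15 counts. It stood at 9.12, 10.0 and 9.04 CPM in MSNP, or 276, 372 and 305 counts, and every MSNP library lay above every library of the other groups. The log2 fold change against the controls was 4.99 (SE 0.22, adjusted p = 3.04e-10), a 31.8-fold increase, and it was 5.30 without Control replicate 3. The nonporous particles moved the same gene less. The level was 0.806, 0.789 and 0.914 CPM in SNP100 and 0.912, 0.935 and 0.864 CPM in SNP50, above all 3 controls in both groups. The fold increase was 2.84 in SNP100 (log2 1.51, SE 0.26, adjusted p = 0.0113) and 3.07 in SNP50 (log2 1.62, SE 0.26, adjusted p = 0.00709), and the log2 values were 1.80 and 1.91 without Control replicate 3. The call in SNP100 was lost when SNP100 replicate 3 was left out (adjusted p = 0.0516). HMSNP, at 0.411, 0.530 and 0.252 CPM, overlapped the controls, and its log2 fold change of 0.42 (95% interval -0.21 to 1.05) did not pass the test, nor did 0.71 without Control replicate 3 (adjusted p = 0.307).

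Fabp5, the epidermal fatty acid binding protein that macrophages also make, lies 187 kb from Fabp4 on the same chromosome (chr3:10077602-10081674, plus strand). Its level was 146, 148 and 230.0 CPM in the controls, and the highest of these was replicate 3. In MSNP it was 614, 577 and 569 CPM, above all other libraries. The log2 fold change was 1.75 (SE 0.13, adjusted p = 1.35e-07), or 2.0 without Control replicate 3. In SNP100 the level was 214, 224 and 211 CPM, in SNP50 225, 226 and 209.7 CPM, and in HMSNP 147, 138 and 129 CPM. The values of SNP100 and SNP50 lay above Controls 1 and 2 and below Control 3. Neither comparison passed the test with all controls (log2 0.31, adjusted p = 0.434 and log2 0.33, adjusted p = 0.304), and both did without Control replicate 3 (0.55, adjusted p = 2.74e-05 and 0.58, adjusted p = 1.02e-05). A near-identical Fabp5 copy, Fabp5l2, had 11 counts summed over all libraries.

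Per kilobase of transcript Fabp5 exceeded Fabp4 in every library. The ratio was 657 to 1170.3 in the controls, 316 to 389 in SNP100, 331 to 339 in SNP50, 357 to 699 in HMSNP and 78.6 to 92.1 in MSNP, where it was lowest. Other fatty acid binding protein genes between or beside them were not expressed at this depth: Pmp2 and Fabp9 had 0 counts in every library and Fabp12 had 1 count in all. Of the tested protein-coding neighbours within 500 kb, Snx16 (log2 1.05, adjusted p = 4.22e-07), Zfp704 (0.69, adjusted p = 0.0351) and Impa1 (0.36, adjusted p = 0.000399) rose in MSNP and Zfand1 fell by 0.33 (adjusted p = 0.0483). Pag1 (0.44, adjusted p = 0.159), Myef2l and Gm38303 did not pass the test.

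Plin2, the perilipin that coats lipid droplets in macrophages (chr4:86565912-86588459, minus strand), rose in MSNP. The controls held 111, 115 and 128 CPM and MSNP 372, 353 and 347 CPM. The MSNP libraries lay above all others, at a log2 fold change of 1.6 (SE 0.07, adjusted p = 3.26e-10), or 1.67 without Control replicate 3. The level was 131, 133 and 124 CPM in SNP100, 132, 127 and 124 CPM in SNP50 and 134, 144 and 131 CPM in HMSNP. Adjacent groups among these and the controls overlapped. HMSNP stood above every control, but its log2 fold change of 0.21 did not pass the test (adjusted p = 0.0963), and did so without Control replicate 3 (0.27, adjusted p = 0.00224). Without that library the smaller differences in SNP100 (0.20, adjusted p = 0.0343) and SNP50 (0.18, adjusted p = 0.0221) also passed.

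The promoters of 6 of the 10 genes were held in the RefSeq table used here, as windows of 300 bases that begin 250 bases before a transcription start, on GRCm38.p6 (an earlier build than that of the gene positions). They were searched on both strands for the DR1 element of PPAR (AGGTCANAGGTCA) and the DR4 element of LXR (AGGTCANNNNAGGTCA), each with up to 2 mismatches, for the single hexamer AGGTCA, which is part of both, and for the CACGTG box of bHLH factors. Among 32851 promoters 3.86% held a DR1 match, 3.02% a DR4 match, 16.3% the hexamer and 7.15% the CACGTG box. The windows of Plin2, Abca1 and Mylip are shown because these genes moved apart in MSNP and HMSNP. Capitals mark the matches, which are descriptions of the letters and not sites of binding. In Plin2 they are a DR1 match with 2 mismatches on the minus strand of the window, 225 bases before the start, which contains the hexamer, and a CACGTG box 4 bases before it. In Abca1 a CACGTG box lies 147 bases before the start, and in Mylip none of the 4 motifs matched.
Plin2, chr4:86670010-86670309, minus strand: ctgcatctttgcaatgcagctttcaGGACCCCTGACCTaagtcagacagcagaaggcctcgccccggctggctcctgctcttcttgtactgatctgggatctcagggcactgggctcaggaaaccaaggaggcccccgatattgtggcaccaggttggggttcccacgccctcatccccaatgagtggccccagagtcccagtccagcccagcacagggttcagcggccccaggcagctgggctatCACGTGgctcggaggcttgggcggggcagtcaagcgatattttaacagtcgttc
Abca1, chr4:53159846-53160145, minus strand: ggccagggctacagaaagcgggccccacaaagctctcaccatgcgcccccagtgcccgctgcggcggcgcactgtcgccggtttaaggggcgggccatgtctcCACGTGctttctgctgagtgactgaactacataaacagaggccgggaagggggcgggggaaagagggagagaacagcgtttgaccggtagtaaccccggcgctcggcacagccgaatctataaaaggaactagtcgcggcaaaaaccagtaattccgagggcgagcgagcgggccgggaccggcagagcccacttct
Mylip, chr13:45389492-45389791, plus strand: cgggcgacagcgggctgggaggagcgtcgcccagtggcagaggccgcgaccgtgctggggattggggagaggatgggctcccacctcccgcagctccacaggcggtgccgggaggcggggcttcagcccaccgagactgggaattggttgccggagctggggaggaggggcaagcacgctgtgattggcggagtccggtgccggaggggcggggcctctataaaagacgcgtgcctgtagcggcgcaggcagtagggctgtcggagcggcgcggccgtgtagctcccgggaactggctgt
No DR4 match with up to 2 mismatches was found in any window of the 6 genes. Looser DR4 elements were not searched for, so their absence is not shown, in Abca1 or elsewhere. In the windows of Pparg the hexamer matched at 28 and 9 bases before the respective starts, and the windows of Nr1h3 and Apoe held none of the motifs. The genes without a window were Fabp4, Fabp5, Lpl and Abcg1.

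Lpl, the secreted lipase that frees fatty acids from triglyceride-rich lipoproteins (chr8:69284603-69360100, plus strand), moved in opposite directions under the 2 porous particles. The controls held 909, 878 and 852 CPM. The level was 514, 514 and 532 CPM in MSNP and 1639, 1640.3 and 1636 CPM in HMSNP. Neither group overlapped any other. Lpl fell by 0.76 on the log2 scale in MSNP (SE 0.06, adjusted p = 3.20e-07) and rose by 0.90 in HMSNP (SE 0.06, adjusted p = 9.09e-07), and the values without Control replicate 3 were -0.77 and 0.87. SNP100, at 731, 669.9 and 793 CPM, and SNP50, at 735, 752 and 785 CPM, lay below all controls and above MSNP. Their log2 fold changes of -0.27 (adjusted p = 0.0703) and -0.22 (adjusted p = 0.133) did not pass the test with all controls and passed it without replicate 3 (-0.29, adjusted p = 0.00582 and -0.24, adjusted p = 0.00635).

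Pparg, which encodes PPARγ (chr6:115337675-115468268, plus strand), was close to the limit of detection. The controls had 5, 10 and 5 counts and MSNP had 19, 19 and 16. These are 0.152, 0.289 and 0.130 CPM against 0.628, 0.513 and 0.474 CPM, and the groups did not overlap. The log2 fold change was 1.48 (SE 0.39, adjusted p = 0.0109), or 1.27 (adjusted p = 0.0301) without Control replicate 3. HMSNP, with 8, 16 and 15 counts, was at 0.82 (95% interval -0.05 to 1.68, adjusted p = 0.228). SNP100 with 5, 8 and 11 counts and SNP50 with 7, 3 and 5 overlapped the controls.

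Nr1h3, which encodes LXRα (chr2:91014394-91033417, minus strand), had the narrowest range of the 10 genes, 18.1 to 23.7 CPM over the 15 libraries. The log2 fold change against the controls was 0.12 in MSNP (95% interval -0.05 to 0.29), -0.15 in HMSNP (-0.32 to 0.02), 0.04 in SNP100 (-0.13 to 0.21) and 0.13 in SNP50 (-0.04 to 0.30). None passed the test. Without Control replicate 3 the values in MSNP (0.22, adjusted p = 0.00832) and SNP50 (0.22, adjusted p = 0.0161) did. The gene overlaps Acp2 on the other strand, which had 43963 counts in all, and the strand setting of the counting is not given in the sources used here, so that reads of the pair may not be told apart.

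Abca1, which loads cholesterol onto lipid-poor apolipoprotein A-I (chr4:53030787-53159900, minus strand), was the efflux gene with the widest range. It stood at 2.07, 3.12 and 1.07 CPM in the controls, a wider spread than over the 6 libraries of SNP100 and SNP50. It stood at 1.26, 1.46 and 1.156 CPM in MSNP and at 3.97, 4.32 and 3.25 CPM in HMSNP. The HMSNP libraries lay above all others, but at log2 0.89 (SE 0.28) the adjusted p against the controls was 0.0818, and 0.113 without replicate 3, where the value was 0.56. In MSNP the log2 fold change was -0.68 (SE 0.31, adjusted p = 0.133) with all controls and -1.0 (adjusted p = 0.00290) without replicate 3. SNP100, at 2.29, 2.69 and 2.77 CPM, and SNP50, at 1.76, 2.72 and 2.98 CPM, overlapped the controls.

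Abcg1, the transporter that passes cholesterol on to high-density lipoprotein (chr17:31276649-31336969, plus strand), was highest with the nonporous particles. It stood at 32.6, 33.4 and 25.6 CPM in the controls. In SNP100 it was 44.3, 45.0 and 42.1 CPM and in SNP50 38.8, 44.6 and 39.1 CPM, all above the controls and overlapping each other. The log2 fold change was 0.52 in SNP100 (SE 0.09, adjusted p = 0.0153) and 0.42 in SNP50 (SE 0.10, adjusted p = 0.0445), and without Control replicate 3 it was 0.41 (adjusted p = 0.00127) and 0.30 (adjusted p = 0.00371). The SNP100 call was lost without SNP100 replicate 1 (adjusted p = 0.0929) or 2 (adjusted p = 0.109). The SNP50 call lay near the threshold and held in 2 of the 15 fits that leave out 1 library. MSNP, at 28.3, 25.9 and 27.2 CPM, and HMSNP, at 23.4, 25.0 and 25.7 CPM, were -0.17 (adjusted p = 0.223) and -0.30 (adjusted p = 0.0822) from the controls on the log2 scale. Without replicate 3 both passed the test, at -0.28 (adjusted p = 0.00362) and -0.42 (adjusted p = 0.000446).

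Apoe, which encodes the apolipoprotein that macrophages secrete with cholesterol (chr7:19430034-19434947, minus strand), varied within groups as much as between them. It stood at 11.1, 5.64 and 9.84 CPM in the controls, 5.35, 5.86 and 9.48 CPM in MSNP and 8.32, 5.70 and 11.8 CPM in HMSNP. In SNP100 the range was 7.28 to 8.98 CPM and in SNP50 9.72 to 12.6 CPM. No comparison passed the test with or without Control replicate 3, and in MSNP the 95% interval of the log2 fold change reached from -0.95 to 0.24.

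Mylip, the ubiquitin ligase also called IDOL (chr13:45543215-45565501, plus strand), fell in MSNP. The controls held 17.2, 18.01 and 15.4 CPM and MSNP 3.34, 2.83 and 3.29 CPM. The decrease was 2.42 on the log2 scale, a log2 fold change of -2.42 (SE 0.09, adjusted p = 8.10e-11), which makes the control level 5.36 times that of MSNP. The value without Control replicate 3 was -2.48. HMSNP, at 17.4, 18.4 and 18.9 CPM, overlapped the controls at log2 0.11 (95% interval -0.06 to 0.28). SNP100, at 12.5, 13.6 and 12.7 CPM, and SNP50, at 13.6, 13.7 and 14.5 CPM, lay below every control and above MSNP. The log2 fold change was -0.39 in SNP100 (adjusted p = 0.0381) and -0.27 in SNP50 (adjusted p = 0.144). The SNP100 call lay near the threshold and held in 1 of the 15 fits that leave out 1 library, the one without Control replicate 3 (-0.45, adjusted p = 0.000740), in which SNP50 passed too (-0.34, adjusted p = 0.00223). Mylip overlaps the lncRNA Gm56579, which had 126 counts in all.

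Hollow mesoporous and mesoporous particles of the same nominal diameter and dose by mass could be compared directly, with no control library in the contrast. All 15 libraries still entered the estimate of each gene's spread. The paper describes HMSNP as low in density and distinct in surface composition, so that these traits and the hollow form cannot be told apart. Between HMSNP and MSNP 7 of the 10 genes differed, where 20.2% of all tested genes did. Lpl (log2 1.66, SE 0.06, adjusted p = 1.42e-10), Mylip (2.53, SE 0.09, adjusted p = 7.37e-11) and Abca1 (1.57, SE 0.30, adjusted p = 0.00108) were higher in HMSNP, 3 genes against a background of 9.22% higher. Fabp4 (-4.57, SE 0.21, adjusted p = 4.74e-10), Fabp5 (-2.09, SE 0.14, adjusted p = 2.45e-08), Plin2 (-1.39, SE 0.07, adjusted p = 1.44e-09) and Nr1h3 (-0.27, SE 0.08, adjusted p = 0.0243) were lower, 4 genes against a background of 11.0% lower. In fold terms the MSNP level was 23.8 times that of HMSNP for Fabp4, 4.25 times for Fabp5 and 2.62 times for Plin2, and the HMSNP level was 5.79 times that of MSNP for Mylip, 3.15 times for Lpl and 2.97 times for Abca1. The Nr1h3 call was lost in 4 fits that leave out 1 library, those without MSNP replicate 1 or 3 or HMSNP replicate 2 or 3 (adjusted p from 0.0531 to 0.0917). Without Control replicate 3 the same 7 genes passed, with an adjusted p of 0.000376 for Nr1h3 and 6.27e-06 for Abca1. Differences were not detected for Pparg (-0.67, 95% interval -1.40 to 0.07), Abcg1 (-0.13, -0.34 to 0.07) and Apoe (0.32, -0.27 to 0.92).

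MSNP and SNP100 share the nominal diameter but not the dose, so that porosity and dose cannot be told apart between them. Of the 10 genes 8 differed, where 17.9% of all tested genes did. Fabp4 (log2 3.49), Plin2 (1.46), Fabp5 (1.44) and Pparg (1.30) were higher in MSNP, and Mylip (-2.04), Abca1 (-1.0), Abcg1 (-0.69) and Lpl (-0.49) were lower. The adjusted p was 0.0246 for Pparg and 0.0326 for Abca1 and at most 7.95e-05 for the other 6. The Pparg call was lost without SNP100 replicate 1 or 2 or MSNP replicate 1 or 2 (adjusted p from 0.0575 to 0.110), and the Abca1 call without any 1 of the SNP100 and MSNP libraries or HMSNP replicate 1 (0.0512 to 0.117).

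SNP50 and SNP100 differ in diameter and dose together. None of the 10 genes passed edgeR's test between them, 0 of 10 against a background of 0.0% (0 of 19839 genes). At an unadjusted p under 0.05 there were 0 of the 10 and 867 of all genes, and DESeq2 called 0 of the 10 and 1 of all. The 95% intervals of the log2 difference, SNP50 minus SNP100, were -0.36 to 0.59 for Fabp4, -0.30 to 0.10 for Abcg1, -0.16 to 0.13 for Plin2, -0.09 to 0.19 for Lpl and -0.06 to 0.29 for Mylip. They were -0.25 to 0.31 for Fabp5 and -0.08 to 0.25 for Nr1h3. Wider ones were -1.44 to 0.54 for Pparg, -0.66 to 0.55 for Abca1 and -0.10 to 1.08 for Apoe. For Apoe and Mylip every SNP50 library lay above every SNP100 library.

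The other genes of these pathways were taken as 5 lists and counted by direction, with 11.8% of all tested genes higher and 11.0% lower in MSNP, and 2.46% higher and 2.7% lower in HMSNP. For these lists, values without a unit are log2 fold changes against the controls. The lists were chosen with earlier results known and have no test of their own. The shares above belong to the fit with all controls. Once Control replicate 3 was left out, 18.9% of all tested genes passed for SNP50, counted in either direction. The corresponding share was 29.5% for MSNP, 8.66% for HMSNP and 5.16% for SNP100. Their split into higher and lower is not given here. List counts by direction without that library therefore have no matching share and are descriptions.

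**Figure D4:**
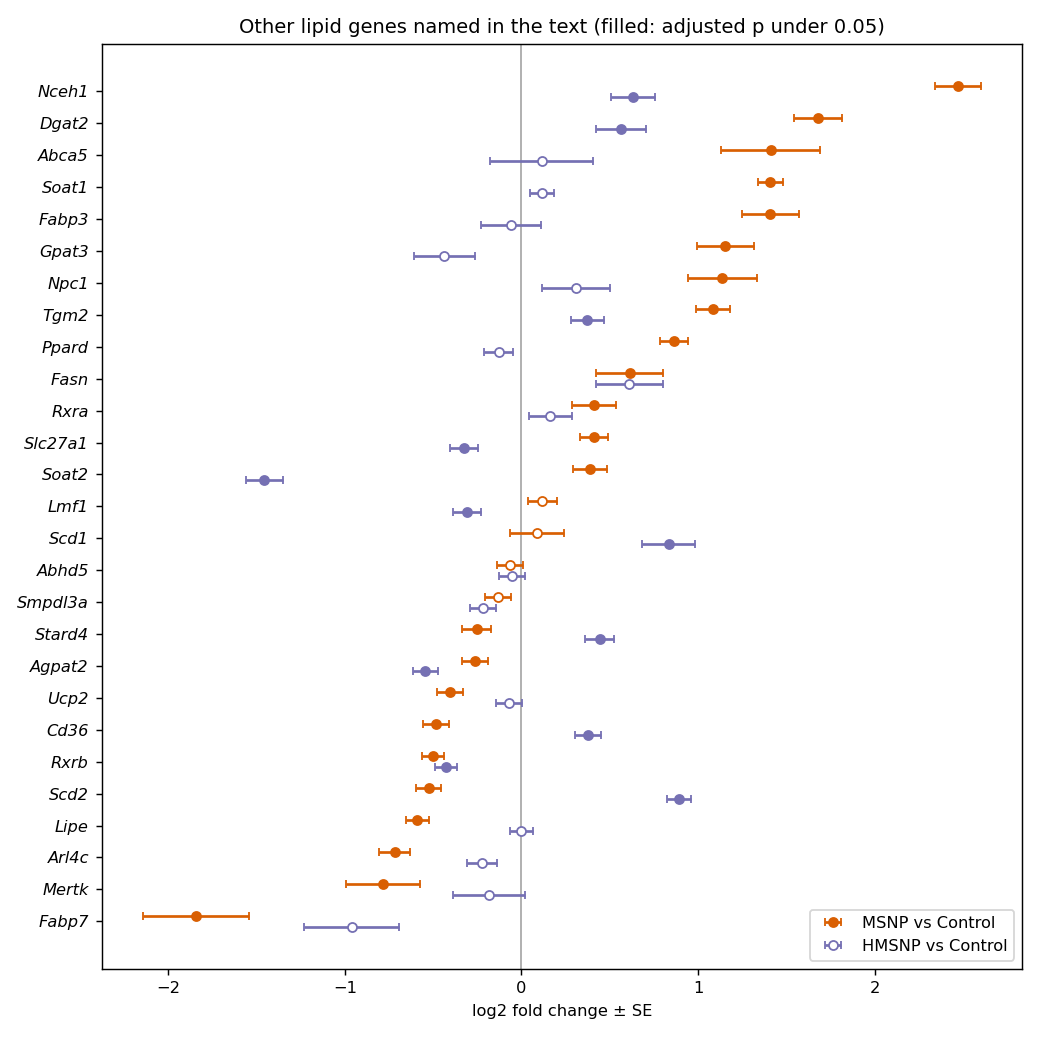
Fitted log2 fold change with its standard error (horizontal axis) of the other lipid genes named in the text, for MSNP (orange) and HMSNP (purple) against the controls, ordered by the value in MSNP, with filled points for an adjusted p under 0.05. Nceh1 lies at 2.47 in MSNP, and Cd36, Scd2 and Stard4 lie below 0 in MSNP and above 0 in HMSNP with filled points on both sides.

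Of 30 genes of lipid droplets and of triglyceride or cholesteryl ester turnover, 22 were tested. In MSNP 10 rose, 2 fell and 10 did not pass the test, with a median log2 fold change of 0.24 beside -0.05 over all genes. Without Control replicate 3 the counts were 12 and 2. Nceh1, a hydrolase that splits stored cholesteryl ester, stood at 94.3, 109.7 and 70.3 CPM in the controls and at 531, 509 and 481 CPM in MSNP (log2 2.47, SE 0.13, adjusted p = 1.74e-09). Dgat2, which catalyses the final step of triglyceride synthesis, rose from 1.52, 1.53 and 1.80 CPM to 4.63, 5.59 and 5.36 CPM (1.68, adjusted p = 2.34e-07). Gpat3, an acyltransferase early in that synthesis, rose by 1.15 (adjusted p = 6.76e-05). Lipe, the hormone-sensitive lipase, and Agpat2, another acyltransferase, fell by 0.59 and 0.26, and Agpat2 was at -0.17 without Control replicate 3 (adjusted p = 0.0199). In HMSNP 4 rose and 4 fell, with a median of 0.02 beside -0.04 over all genes. Soat2, which esterifies cholesterol, fell there from 8.19, 7.69 and 7.24 CPM to 2.64, 2.65 and 3.09 CPM (-1.46, adjusted p = 9.44e-07), whereas it rose in MSNP (0.39, adjusted p = 0.00826). Soat1, which catalyses the same reaction, had a mean of 343 CPM in the controls and rose to 912 CPM in MSNP (1.41, adjusted p = 1.02e-09), while at 372 CPM in HMSNP it did not pass the test (0.12, 95% interval -0.03 to 0.26). Nceh1 (0.63, adjusted p = 0.00745) and Dgat2 (0.57, adjusted p = 0.0326) also rose in HMSNP, by less than in MSNP, and Agpat2 fell by 0.54. Between HMSNP and MSNP 1 gene of the list was higher and 12 were lower, where 9.22% of all tested genes were higher and 11.0% lower. In SNP100 only Nceh1 passed the test (0.63, adjusted p = 0.0248), and in SNP50 only Abhd5, the co-activator of the triglyceride lipase (-0.37, adjusted p = 0.0200), and Gpat3 (-0.89, adjusted p = 0.0286) did. Leaving out Control replicate 3, 1 gene of the list was higher and 4 were lower in SNP100, 2 and 6 in SNP50, and 5 and 4 in HMSNP.

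Of 13 genes of fatty acid binding and uptake, 10 were tested, with 3 higher and 2 lower in MSNP and 1 higher and 2 lower in HMSNP. The medians were -0.08 and -0.32. Cd36, the scavenger receptor for oxidized lipoprotein and fatty acids, was the 1 gene of the list to pass in all 4 treated groups. It stood at 250.02, 249 and 232 CPM in the controls, 160.4, 148 and 144 CPM in SNP100 and 118, 123 and 139 CPM in SNP50. In MSNP it stood at 177, 178 and 168 CPM and in HMSNP at 300.2, 339 and 311 CPM. It fell by 0.69 in SNP100 (adjusted p = 0.000512), by 0.94 in SNP50 (adjusted p = 3.55e-05) and by 0.49 in MSNP (adjusted p = 0.000164), and rose by 0.38 in HMSNP (adjusted p = 0.00778). Fabp3, another binding protein, rose in MSNP (1.41, adjusted p = 8.86e-06) and Fabp7 fell by 1.84 (adjusted p = 0.000295) from a mean of 1.31 CPM in the controls. The fatty acid transporter Slc27a1 rose in MSNP (0.41) and fell in HMSNP (-0.32, adjusted p = 0.0295), where the lipase maturation factor Lmf1 fell as well (-0.31, adjusted p = 0.0418). The counts without Control replicate 3 were 4 higher and 2 lower in MSNP, 1 and 3 in HMSNP, 1 and 1 in SNP100 and 2 and 1 in SNP50.

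Of 18 other PPAR genes and targets, 15 were tested. In MSNP 5 rose and 2 fell, and in HMSNP 2 rose and 0 fell. Tgm2, a transglutaminase, rose by 1.08 in MSNP (adjusted p = 5.57e-07) and by 0.37 in HMSNP (adjusted p = 0.0355), and Ppard, the PPARδ gene, rose by 0.87 in MSNP (adjusted p = 9.17e-07). Ucp2, a mitochondrial carrier, fell by 0.40, and Cd36, which is in this list too, is given above. With all controls Cd36 was the 1 gene of the 15 that passed in SNP100 and in SNP50. Against Controls 1 and 2 alone, 2 genes were higher and 3 lower in SNP100, 3 and 4 in SNP50, 7 and 4 in MSNP and 3 and 0 in HMSNP.

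Of 20 other LXR targets and partners, 15 were tested. In MSNP 2 rose and 5 fell, with a median of -0.09, and in HMSNP 3 rose and 1 fell, with a median of 0.02. The 2 that rose in MSNP were Fasn, the fatty acid synthase (0.61, adjusted p = 0.0296), and Rxra, the partner receptor (0.41, adjusted p = 0.0262), and without Control replicate 3 their values were 0.36 (adjusted p = 0.00610) and 0.25 (adjusted p = 0.0104). Mertk, a receptor for apoptotic cells (-0.78, adjusted p = 0.0133), and Arl4c, a small GTPase (-0.72, adjusted p = 1.69e-05), were the 2 that fell most. The desaturase gene Scd2 stood at 151, 168 and 142 CPM in the controls, 108, 111 and 102 CPM in MSNP and 286, 288 and 282 CPM in HMSNP, and changed in opposite directions (-0.53, adjusted p = 3.64e-05 and 0.89, adjusted p = 1.71e-06). Scd1 rose in HMSNP (0.83, adjusted p = 0.00409) and Rxrb fell there by 0.43 (adjusted p = 0.000823). Scd2 (-0.45, adjusted p = 0.00458) and Smpdl3a, a phosphodiesterase (-0.50, adjusted p = 0.00289), fell in SNP50, and 0 of the 15 genes passed in SNP100. There DESeq2 called 3 of the 15, beside 486 of all 19839 tested genes. An unadjusted p under 0.05 in edgeR's test was held by 4 of the 15, beside 2085 of all tested genes. When Control replicate 3 was left out, 0 genes of the list were higher and 1 lower in SNP100, 0 and 3 in SNP50, 2 and 5 in MSNP and 5 and 1 in HMSNP.

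All 18 genes of sterol egress from lysosomes and sterol transport were tested, with 5 higher and 3 lower in MSNP and 2 higher and 0 lower in HMSNP. Npc1, the lysosomal cholesterol exporter, stood at 125, 151 and 66.4 CPM in the controls, lowest in replicate 3, and at 254, 257 and 244 CPM in MSNP (1.14, adjusted p = 0.000492, and 0.87 without that replicate). Abca5, a lysosomal transporter of the same family as Abca1, rose by 1.41 (adjusted p = 0.00156). Stard4, a cytosolic sterol carrier, fell by 0.25 (adjusted p = 0.0407) in MSNP and rose by 0.44 (adjusted p = 0.00562) in HMSNP. The Stard4 decrease held in 1 of the 15 fits that leave out 1 library, the one without Control replicate 3 (-0.33, adjusted p = 0.00103). In SNP100 and SNP50 0 of the 18 genes passed edgeR's test with all controls. DESeq2 also called 0 of them, beside 486 and 671 of all tested genes. Without Control replicate 3, 0 passed in SNP100, whereas 5 were lower in SNP50, 6 were higher and 5 lower in MSNP and 4 were higher in HMSNP. With all controls, 2 and 3 of the 18 genes had an unadjusted p under 0.05 in SNP100 and SNP50. Over all 19839 tested genes these counts were 2085 and 2384. Some calls of the lists lay near the threshold and passed in only part of the 15 fits that leave out 1 library, for Tgm2 in HMSNP in 4 (highest adjusted p = 0.145), for Slc27a1 in HMSNP in 8 (highest adjusted p = 0.145), for Lmf1 in HMSNP in 3 (highest adjusted p = 0.158). The same held for Nceh1 in SNP100 in 8 (highest adjusted p = 0.154). In MSNP Rxra passed in 12 (highest adjusted p = 0.0866), Fasn in 13 (0.120) and Mertk in 13 (0.0807). Cd36 in HMSNP and Scd2 in SNP50 each passed in 14 (highest adjusted p = 0.0528 and 0.0559).

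Over the 15 libraries and among 11540 genes with a mean of at least 1 CPM, the log2 CPM most like that of Fabp4 belonged to F10 (Pearson r = 0.987), Naglu (0.986) and Jun (0.986), and that most like Mylip to Trib1 (0.995), Epha2 (0.992) and Fos (0.989). These values are descriptions, since the libraries form 5 groups and the MSNP libraries lie far from the rest in all of these genes. F10, coagulation factor X, had a mean of 1.29 CPM in the controls and 14.3 CPM in MSNP, and Trib1, a pseudokinase, a mean of 30.9 CPM in the controls and 4.30 CPM in MSNP.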

How the data were processed

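RNA of RAW 264.7 cells in 5 groups of 3 libraries was sequenced by the authors from directional poly(A) libraries and mapped to GRCm39. The submitters' processing notes name STAR 2.7.9a, cutadapt 1.16 and featureCounts 1.6.3, and the annotation and the strand setting are not given in the sources used here. The deposited table holds raw counts per gene and library, with replicates kept apart.

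Symbols, positions and transcript lengths came from GENCODE vM39, which holds 56630 of the 57186 identifiers. In R 4.3.3, edgeR 4.0.16 fitted the 15 libraries in one quasi-likelihood model with TMM factors and Benjamini-Hochberg adjustment over 19839 genes with at least 10 summed counts, at a threshold of 0.05. SE is the absolute log2 fold change over the root of F, and 95% intervals use the fit's degrees of freedom. CPM values carry no offset, and correlations used log2 CPM with a prior count of 2. Alternatives were DESeq2 1.42.0, RLE factors, the filterByExpr filter, no filter, the libraries of a comparison alone, the replicate number as a block, an offset that removes each library's trend with transcript length, and leaving out each library. The fit was tested on simulated data.

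The 10 genes, the lists and the rule for named genes were chosen with earlier results of these data known. Named from each list were up to 2 called genes with the largest change in each direction in MSNP and in HMSNP, and every called gene in SNP100 and SNP50. Soat1 and the MSNP values of Gpat3, Scd2 and Soat2 were added after they were seen. Also named were the 3 genes most correlated with each of the members that rose and fell most in MSNP, and the neighbours of Fabp4 and Fabp5. No pair of libraries of a group agreed within sampling noise (lowest mean chi-square per gene 4.95, where sampling alone gives about 1). Some genes of the lists and 1 further list are not reported here.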

Additional observations from a re-analysis of the deposited data

How the results depend on the processing

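Of 27 called values of the 10 genes over 7 comparisons, 8 lost their call in at least 1 of 22 alternatives, all of them in comparisons with SNP100 or SNP50 or for Nr1h3 between HMSNP and MSNP, and 0 reversed. The calls in MSNP and HMSNP against the controls held in all of them. The number of the 10 genes called in SNP100, 3 in the report, was 0 with only the libraries compared, 5 with the length offset and 1 to 6 with a library left out. In SNP50, 2 in the report, it was 1 with RLE factors, no filter or the replicate block, 0 with only the libraries compared, 4 with the length offset and 1 to 7 with a library left out. In HMSNP, 1 in the report, it was 3 with DESeq2, 2 with filterByExpr, 4 with the length offset and 1 to 4 with a library left out. The calls over all tested genes moved too, in HMSNP from 1024 to 1945 with DESeq2. Without Control replicate 3 their share went from 0.912% to 5.16% in SNP100, from 1.41% to 18.9% in SNP50 and from 5.16% to 8.66% in HMSNP. The changes in count with DESeq2 in HMSNP and without Control replicate 3 were therefore not limited to the 10 genes. For the other alternatives the counts over all tested genes are not given here. The labels do not say whether libraries of the same replicate number were paired. Their deviations from the group means correlated from -0.517 to 0.573. In no comparison did all 6 libraries correlate best with their own number (0 to 4 did). Against the controls these values cannot exclude a pairing, since the departure of Control replicate 3 enters the deviations of the controls. Of 6 libraries, 0 correlated best with their own number between SNP50 and SNP100, 2 between MSNP and SNP100 and 3 between HMSNP and MSNP. With 3 libraries per group these values do not settle a pairing either. With the replicate number as a block, the counts in MSNP and HMSNP were 6 and 1. Among the fits that leave out a library, the highest counts came without Control replicate 3 in SNP100 and SNP50 and without Control replicate 2 in HMSNP.

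Of 43 values that did not pass, 10 changed sign. The length offset gave 0.065 for Apoe in HMSNP and, between SNP50 and SNP100, -0.088 for Fabp5 and 0.042 for Abca1. With a library left out, values in SNP100 ran from -0.13 to 0.61 for Pparg, -0.020 to 0.13 for Nr1h3, -0.015 to 0.74 for Abca1 and -0.38 to 0.072 for Apoe. In SNP50 they ran from -0.62 to 0.16 for Pparg and -0.064 to 0.68 for Abca1, in HMSNP from -0.34 to 0.19 for Apoe, and between SNP50 and SNP100 from -0.016 to 0.11 for Lpl and -0.20 to 0.14 for Abca1. The cause was not tested. Depth limits Pparg, with 3 to 19 counts per library, and Fabp4 outside MSNP, with 6 to 33.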
